A study of Rattus norvegicus with 4 samples.

Results

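The genes described here are the matrix metalloproteinases (MMPs), the ADAMTS proteases and their tissue inhibitors (TIMPs), in nuclei from rat heart. Members were all rows of the gene table whose symbol begins with Mmp, Adamts or Timp followed by a digit, which gave 44 of 32623 genes, made up of 21 Mmp, 19 Adamts and 4 Timp genes. Of the 44, 34 had at least 100 UMIs (unique molecular identifiers, each standing for 1 captured RNA molecule) over all nuclei used, and the other 10 are given by their counts only. Mmp11 and Mmp25 are not analysed here.

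MMPs are zinc-dependent enzymes that cut collagens, gelatin, elastin and other matrix proteins, and most are secreted as inactive precursors, while the membrane-type MMPs stay at the cell surface. ADAMTS proteases are secreted and fall into groups that cut proteoglycans such as aggrecan and versican, that trim the amino-terminal propeptide from fibrillar procollagens, that cut von Willebrand factor, or that act at fibrillin microfibrils. The TIMPs bind the active sites of MMPs, and Timp3 also inhibits several ADAMTS proteases. In the infarcted heart this system is known for matrix breakdown by invading leukocytes and for later rebuilding of the matrix by fibroblasts.

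Single-nucleus RNA sequencing was done on tissue labelled as infarct zone from Sprague Dawley rats, with 1 library for each of 4 samples: Sham, MI_1H, MI_6H and MI_24H. The treatment labels count 1, 6 and 24 hours as reperfusion, whereas the series' design text describes coronary ligation of those durations beside separate reperfused hearts, and which of these the hours refer to was not resolved. No label gives an age or sex, or says whether a library came from 1 animal or from pooled animals. The counts lie in 1 matrix whose barcodes end in the suffixes 1 to 4, and no source ties a suffix to a sample, so the libraries are called 1 to 4 here, none of them is treated as a control, and no value is given for an infarct against a sham heart.

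Promoters are shown for the 4 genes whose level differed most between libraries among those with an entry in the RefSeq promoter table, since inducible MMP genes are known for AP-1 sites (the binding site of Fos and Jun factors) close to their start. Each run covers 250 bases before to 50 bases after the annotated start in the assembly GRCr8, is written 5′ to 3′ on the gene's own strand, and has in capitals any match to the AP-1 letters TGANTCA, which read the same on both strands. Timp1 lies at chrX:3771073-3771372 on the minus strand, Mmp12 at chr8:12866402-12866701 on the plus strand, Adamts4 at chr13:86202761-86203060 on the plus strand, and Mmp8 at chr8:13008640-13008939 on the plus strand.
Timp1: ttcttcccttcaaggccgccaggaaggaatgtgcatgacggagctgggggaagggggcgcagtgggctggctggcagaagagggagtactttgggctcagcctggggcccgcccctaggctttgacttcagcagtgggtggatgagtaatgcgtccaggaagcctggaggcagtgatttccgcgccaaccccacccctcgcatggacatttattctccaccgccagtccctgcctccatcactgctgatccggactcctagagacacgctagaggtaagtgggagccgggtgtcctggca
Mmp12: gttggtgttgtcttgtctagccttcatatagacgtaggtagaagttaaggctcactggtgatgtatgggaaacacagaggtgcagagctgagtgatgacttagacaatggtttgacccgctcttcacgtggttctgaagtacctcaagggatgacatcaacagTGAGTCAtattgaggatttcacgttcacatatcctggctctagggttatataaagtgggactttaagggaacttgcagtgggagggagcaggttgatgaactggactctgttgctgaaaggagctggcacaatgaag
Adamts4: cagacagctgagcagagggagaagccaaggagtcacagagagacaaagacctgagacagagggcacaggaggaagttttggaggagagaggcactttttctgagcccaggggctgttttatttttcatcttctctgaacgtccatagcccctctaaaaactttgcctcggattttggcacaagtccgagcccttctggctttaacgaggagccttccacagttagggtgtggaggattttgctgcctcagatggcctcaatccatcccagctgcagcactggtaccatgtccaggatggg
Mmp8: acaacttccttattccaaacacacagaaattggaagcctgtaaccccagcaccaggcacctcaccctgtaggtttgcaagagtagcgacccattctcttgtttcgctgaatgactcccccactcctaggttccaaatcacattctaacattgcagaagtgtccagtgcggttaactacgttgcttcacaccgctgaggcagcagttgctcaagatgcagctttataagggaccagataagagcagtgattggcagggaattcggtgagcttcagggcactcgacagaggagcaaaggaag
Of these 4 runs, that of Mmp12, the macrophage elastase, held the AP-1 letters, as TGAGTCA, 87 bases before the start. The letters occurred in 7 of the 33 members with an entry, against 8.04% of all 27457 genes in the table. All 7 (Mmp1, Mmp3, Mmp7, Mmp10, Mmp12, Mmp13 and Mmp20) belong to a run of 10 neighbouring MMP genes on chromosome 8, of which 2, Mmp8 and Mmp12, reached 100 UMIs. The other 8 genes of the run had 64 UMIs together, so most members that hold the letters were at or near 0 in these nuclei. Among members whose level over all nuclei differed by 2-fold or more between libraries, 19 had an entry. Of these, 1 held the letters, so the count over all members does not describe those that differ between libraries. A match of letters is a description and not a bound site. The search took only TGANTCA, so close variants are left unmarked, such as tgagtaa in the Timp1 run. A run without capitals is therefore not shown to lack an AP-1 site.

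The matrix held 48637 barcodes, and 41731 nuclei were used after filters and doublet removal, 8364, 12898, 14288 and 6181 in libraries 1 to 4. They carried 15652543, 12800388, 38697652 and 20401476 UMIs, and of 46348 barcode sequences 241 occurred in more than 1 library. Clusters were named from fixed marker genes, written with "-like" since the names rest on markers alone, and 10 classes were named. In library 2 only 7.38% of nuclei fell in a named cluster, against 99.8, 94.4 and 88.5% in libraries 1, 3 and 4, so values of library 2 by class rest on few nuclei. Fibroblast-like nuclei carried all 10 fibroblast markers and endothelial-like nuclei all 9 endothelial markers above 0 in each library. This does not set them apart, since cardiomyocyte-like and pericyte-like nuclei also carried all of these markers above 0. The naming rule was passed by 7 to 9 of the 10 fibroblast markers in fibroblast-like clusters and by 8 or 9 of the 9 endothelial markers in endothelial-like clusters. The pericyte-like cluster also held smooth muscle markers, at 904 to 2523 CPM (UMIs per 1000000 UMIs) summed over 7 genes, and the T or NK-like cluster also held B cell markers. Other cell types' markers were present in every class. Those of unrelated classes stood in fibroblast-like nuclei at 20.2, 39.6, 50.9 and 53.2% of their level over the whole library 1 to 4, in endothelial-like nuclei at 22, 39.4, 60.9 and 49.6%, and in cardiomyocyte-like nuclei at 31, 53.3, 68.5 and 60.1%. These shares served as the estimate of free RNA, which enters all droplets of a library, and library 1 had the lowest share in each of these 3 classes. In pericyte-like nuclei the share was 29.8, 64.4, 77.6 and 73.8%. It was 73.3, 83.4 and 80.8% in neutrophil-like nuclei of libraries 2 to 4, and 27.4 and 74.0% in Schwann-like nuclei of libraries 1 and 3. Values of pericyte-, neutrophil- and Schwann-like nuclei are given before subtraction. Where the library profile was subtracted at this share, the rest was scaled again to UMIs per 1000000. Values after subtraction can therefore exceed those before it.

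Levels are given in CPM, with gene and total UMIs both taken over all nuclei that a class has in 1 library, and a ratio is the class over all other named nuclei of the same library. The make-up of these other nuclei differs between libraries, and ratios differ with it. Cardiomyocyte-like nuclei, for example, were 32.2% of nuclei in library 1 and 7.87% in library 3. A gene was counted as high in a class when the ratio was at least 2, and as low when it was at most 0.5, in every library with at least 50 nuclei of the class. With 1 library per sample there is no test and no p-value, and the 95% intervals are exact Poisson intervals for levels and conditional binomial intervals for ratios, which cover counting error only. The same counts over all 13818 genes with at least 100 UMIs in named nuclei are given as the background, and 33 members were among them. Where values of a class and of other nuclei are said not to overlap, the share of all genes with no overlap was not counted. The median log2 ratio over all these genes was 0.06 to 0.38 in fibroblast-like, -0.12 to 0.18 in endothelial-like and -0.12 to 0.51 in macrophage-like nuclei. A lower level in a class can reflect fewer expressing nuclei or less RNA per nucleus, which were not separated.

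**Figure D1:**
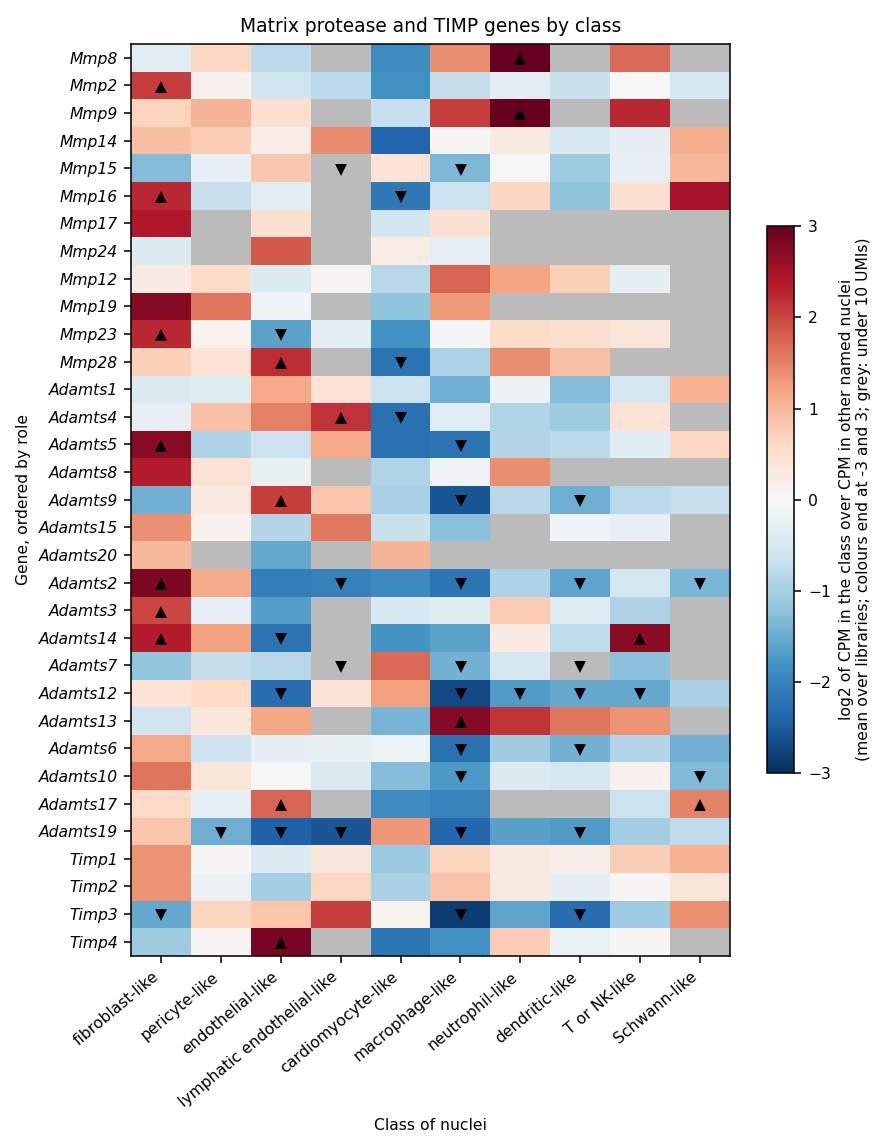
Heat map of the 33 genes with at least 100 UMIs in named nuclei (rows, ordered by role) over the 10 classes (columns), coloured by log2 of CPM in the class over CPM in other named nuclei, as a mean over libraries, with grey for under 10 UMIs in the class. Upward triangles mark genes high and downward triangles genes low in every counted library, and 7 upward triangles stand in the fibroblast-like column and 4 in the endothelial-like column.

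Fibroblast-like nuclei held 7 members high in all 4 libraries: Adamts2, Adamts3, Adamts14, Adamts5, Mmp2, Mmp16 and Mmp23. That is 7 of 33, against 2.53% of all genes tested. All 3 procollagen N-proteinases, the enzymes that trim fibrillar procollagens, were in this group. Mmp2 was not counted as high with median-of-ratios scaling or without doublet removal, whereas the other 6 were high under every alternative tried. Adamts2 had 794, 738, 557 and 516 CPM in fibroblast-like nuclei of libraries 1 to 4, against 51.2, 135, 108 and 95.1 CPM in other named nuclei. The lowest fibroblast-like value lay above the highest value of other nuclei, and the ratio was at least 5.17 (95% interval 4.94 to 5.4) in library 3. Adamts14 had 124, 70.7, 47.6 and 33 CPM in fibroblast-like nuclei and 9.7, 13.4, 15.3 and 9.91 CPM in other named nuclei. Adamts3, which also processes the lymphatic growth factor VEGF-C, had 77.2, 40.4, 40.1 and 43.4 CPM in fibroblast-like nuclei and 14.4, 9.67, 15.7 and 9.44 CPM in other named nuclei. The value of Adamts3 in library 2 rested on 4 UMIs.

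Adamts5, an aggrecan- and versican-cutting protease, had 362, 263, 166 and 166 CPM in fibroblast-like nuclei, against 22.9, 40.8, 38.7 and 40.5 CPM in other named nuclei. The class and the rest did not overlap, and the lowest ratio was 4.1 (95% interval 3.68 to 4.57) in library 4. The gelatinase Mmp2 had 172, 101, 149.9 and 158 CPM in fibroblast-like nuclei and 9.0, 41.4, 72.1 and 49.5 CPM in other named nuclei. Its fibroblast-like level was similar in libraries 1, 3 and 4, while the level in other nuclei was lowest in library 1, so the ratio was 19.1 (95% interval 15.5 to 23.6) in library 1 and 2.08 (95% interval 1.95 to 2.22) in library 3. After the profile of the whole library was subtracted at the share given above and the rest scaled again, Mmp2 had 203, 113, 200.2 and 241 CPM in fibroblast-like nuclei. In cardiomyocyte-like nuclei of each library Mmp2 was then at 0. Mmp23, an MMP anchored by its amino-terminal end, had 39.1, 111, 47.2 and 43.2 CPM in fibroblast-like nuclei and 1.72, 41.9, 19.5 and 11.6 CPM in other named nuclei. The membrane-type Mmp16 had 18.5, 50.5, 56 and 44.7 CPM in fibroblast-like nuclei, from 53, 5, 651 and 210 UMIs, and 2.9, 9.14, 11.4 and 14.5 CPM in other named nuclei.

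Several further ADAMTS genes were higher in fibroblast-like than in other named nuclei of each library without reaching a ratio of 2 in all 4. The 60 fibroblast-like nuclei of library 2 carried 98972 UMIs, so a higher value there can rest on few UMIs. Adamts10, which acts at fibrillin microfibrils, had 465, 162, 170.2 and 175 CPM in fibroblast-like nuclei and 66.6, 89.2, 58.6 and 77 CPM in other named nuclei, with a ratio of 1.81 in library 2. Adamts6, a close relative of Adamts10, had 262, 394, 457 and 450.2 CPM in fibroblast-like nuclei and 183, 181, 133 and 214 CPM in other named nuclei, and here the ratio was lowest in library 1. Adamts19, a gene whose loss causes heart valve disease in humans and mice, had 538, 70.7, 90.1 and 105 CPM in fibroblast-like nuclei and 136, 64.5, 53 and 76.2 CPM in other named nuclei. Library 1 thus stood far above libraries 2, 3 and 4 for Adamts19 in this class, and in library 2 the class and the other nuclei had close values. Adamts8, another protease of the proteoglycan-cutting group, had 14.3, 10.1, 12.1 and 17.2 CPM in fibroblast-like nuclei and 0.548, 4.84, 6.07 and 8.1 CPM in other named nuclei, and its ratio of 1.99 in library 3 lay just under the threshold. Mmp17, an MMP held to the membrane by a lipid anchor, had 7.69, 10.1, 3.62 and 4.25 CPM in fibroblast-like nuclei and 2.11, 0.537, 1.69 and 2.41 CPM in other named nuclei. Mmp19 had 7.69, 10.1, 4.99 and 4.04 CPM in fibroblast-like nuclei and 0.470, 1.07, 3.07 and 1.61 CPM in other named nuclei. Adamts8, Mmp17 and Mmp19 each had 1 UMI in the class in library 2.

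**Figure D2:**
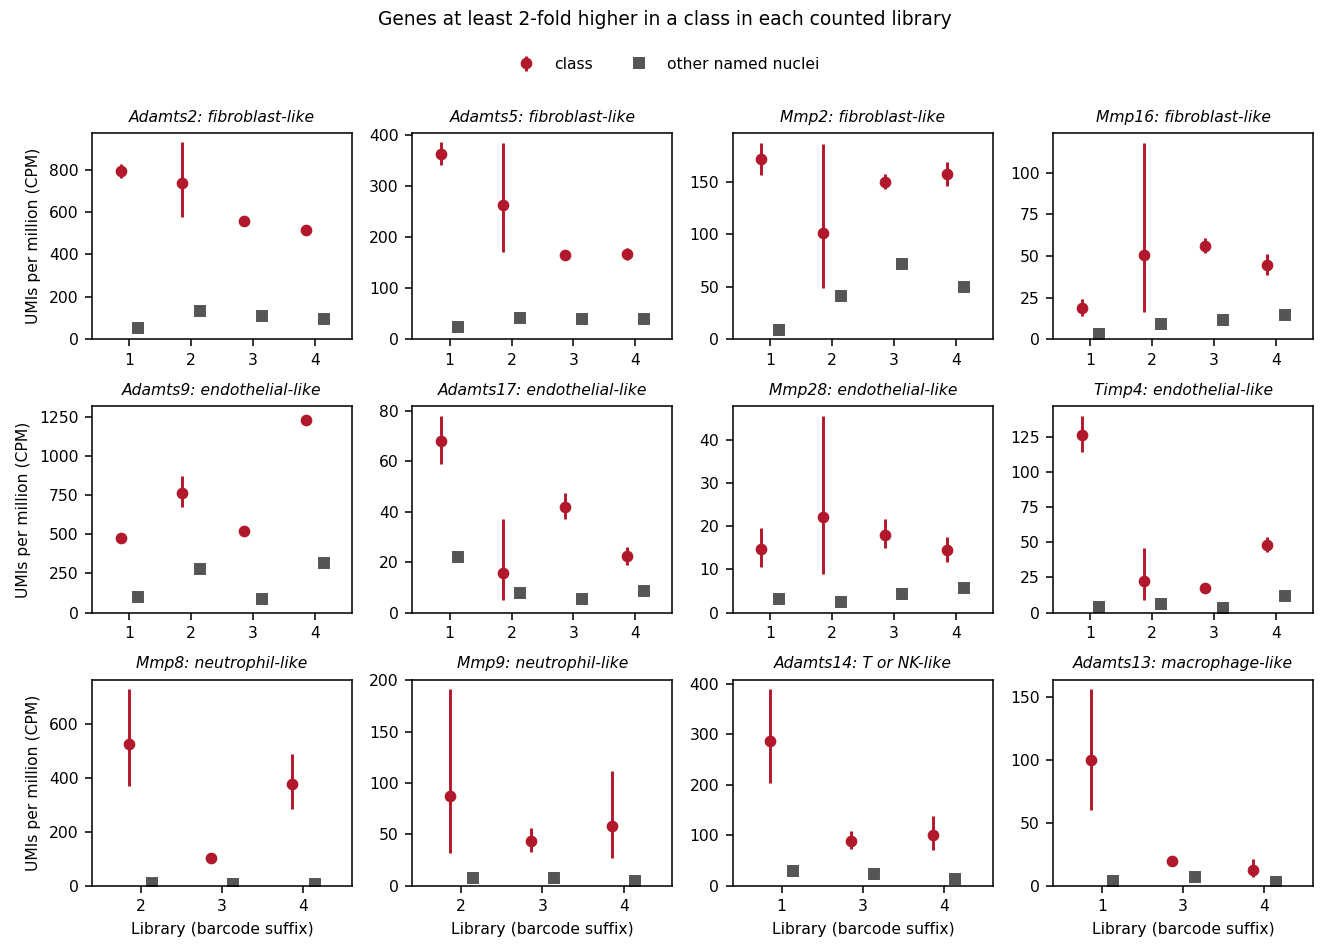
CPM (vertical axes, from 0) of 12 gene and class pairs at least 2-fold higher in the class in each counted library (horizontal axes, library by barcode suffix), with red circles for the class with exact Poisson 95% intervals and grey squares for other named nuclei of the same library. Adamts2 in fibroblast-like nuclei lies between 516 and 794 CPM against 51.2 to 135 CPM in other nuclei, and Mmp8 in neutrophil-like nuclei between 103 and 527 CPM against 7.95 to 10.6 CPM.

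Endothelial-like nuclei held 4 members high in all 4 libraries, Adamts9, Adamts17, Mmp28 and Timp4, against 2.92% of all genes tested. In library 2, 90 of the 139 endothelial-like nuclei came from a cluster led by Nrg1 and Npr3, which gave 135 of 2053, 510 of 2554 and 251 of 2158 in libraries 1, 3 and 4, so library 2 values of this class describe another mix of nuclei. Adamts9, a versican-cutting protease, had 479.5, 767, 520.3 and 1233 CPM in endothelial-like nuclei and 98.8, 276, 87 and 316 CPM in other named nuclei. In each library the endothelial-like level was the higher, with the lowest ratio at 2.78 (95% interval 2.37 to 3.25) in library 2, and both columns were highest in library 4. Timp4, the TIMP known for its expression in heart and vessels, had 127, 22.2, 17.6 and 48.3 CPM in endothelial-like nuclei and 3.72, 6.08, 3.28 and 11.8 CPM in other named nuclei. Its endothelial-like level was highest in library 1 and lowest in library 3. Adamts17, a relative of Adamts10, had 68, 15.8, 42 and 22.3 CPM in endothelial-like nuclei and 21.9, 7.91, 5.22 and 8.57 CPM in other named nuclei. The call rested on 5 UMIs in library 2, where the ratio was lowest, at 2.0 (95% interval 0.559 to 5.99) in library 2. It was lost with median-of-ratios scaling, with at least 1000 UMIs per nucleus and without a finer cardiomyocyte-like cluster. Mmp28, also called epilysin, had 14.7, 22.2, 18.1 and 14.5 CPM in endothelial-like nuclei and 3.16, 2.43, 4.2 and 5.63 CPM in other named nuclei, a low but even level.

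Adamts1 and Adamts4, a versicanase and an aggrecanase, were higher in endothelial-like than in other named nuclei by a wider margin in libraries 2 to 4 than in library 1. Adamts4 had 4.0, 174, 47.3 and 99.9 CPM in endothelial-like nuclei and 3.48, 56, 10.2 and 25 CPM in other named nuclei. In library 1 the class value rested on 12 UMIs, and in the other 3 libraries the ratio was 3.12 to 4.64. Adamts1 had 31, 88.8, 82.3 and 168 CPM in endothelial-like nuclei and 25.9, 45.6, 23.3 and 57.2 CPM in other named nuclei, with a ratio of 1.95 to 3.52 in libraries 2 to 4 and 1.20 in library 1. The membrane-type Mmp15 had 77.4, 19, 35.9 and 45.6 CPM in endothelial-like nuclei and 33.9, 28.6, 13.1 and 20.1 CPM in other named nuclei. Low in endothelial-like nuclei in all 4 libraries were Adamts12, Adamts14, Adamts19 and Mmp23, against 3.1% of all genes tested. Adamts12 had 68, 69.7, 63.4 and 68.5 CPM in endothelial-like nuclei and 531, 313, 195 and 355 CPM in other named nuclei, and its endothelial-like level was nearly the same in every library.

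Lymphatic endothelial-like nuclei, with 128, 182 and 81 nuclei in libraries 1, 3 and 4, held 1 member high, Adamts4, against 2.11% of all genes tested. Adamts4 had 19.8, 106 and 115 CPM in lymphatic endothelial-like nuclei and 3.37, 15.3 and 50.9 CPM in other named nuclei, from 4, 47 and 34 UMIs. Timp3, the matrix-bound inhibitor, had 986, 831 and 337 CPM in lymphatic endothelial-like nuclei and 142, 99 and 263 CPM in other named nuclei. The ratio of Timp3 was 6.94, 8.39 and 1.28, so library 4 fell short of 2-fold. Mmp14, the membrane-type MMP that activates the precursor of Mmp2, had 104, 178 and 74.1 CPM in lymphatic endothelial-like nuclei and 16.3, 71.5 and 60.4 CPM in other named nuclei. Adamts15, another versican-cutting protease, had 114, 56.4 and 27 CPM in lymphatic endothelial-like nuclei and 22.7, 15.5 and 18.7 CPM in other named nuclei. For Mmp14 and Adamts15 the ratio also fell under 2 in library 4. Low in this class were Adamts2, Adamts7, Adamts19 and Mmp15, against 2.97% of all genes tested. Without the cardiomyocyte-like cluster of highest UMI count no member was counted as high in lymphatic endothelial-like nuclei.

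Cardiomyocyte-like nuclei held no member high in all 4 libraries, against 4.44% of all genes tested, and 3 low, Adamts4, Mmp16 and Mmp28, against 2.24%. Over all genes the median log2 ratio in cardiomyocyte-like nuclei was -0.90, -0.43, -0.32 and -0.42 in libraries 1 to 4, so levels there are read against that shift. The count of members low was 0 with median-of-ratios scaling and 15 after free RNA subtraction, settings for which no share of all genes is given. Adamts12 and Adamts7, which cut cartilage oligomeric matrix protein, were higher in cardiomyocyte-like than in other named nuclei of each library. Adamts12 had 549.9, 336, 367 and 565 CPM in cardiomyocyte-like nuclei and 318, 194, 131 and 154 CPM in other named nuclei, with ratios of 1.73, 1.73, 2.81 and 3.67. Adamts7 had 73.9, 70.0, 34.1 and 50.8 CPM in cardiomyocyte-like nuclei and 10.7, 38.4, 10.7 and 18.7 CPM in other named nuclei. Its ratio was over 2 in libraries 1, 3 and 4 and 1.83 in library 2. With median-of-ratios scaling, which takes the shift of all genes out, Adamts7 and Adamts12 were counted as high in cardiomyocyte-like nuclei, and after free RNA subtraction Adamts7 was.

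Adamts19 had 179, 89.2, 161 and 211 CPM in cardiomyocyte-like nuclei and 244, 33.7, 43.2 and 42.7 CPM in other named nuclei. The direction was thus lower in library 1 and higher in libraries 2 to 4, while the fibroblast-like level was highest in library 1. Adamts18 had 106 UMIs over all nuclei used and 92 in named nuclei, under the minimum of 100, and had 5.14, 6.37, 2.07 and 2.55 CPM in cardiomyocyte-like nuclei against 0.687, 1.16, 0.194 and 0.268 CPM in other named nuclei. Adamts20, a versican-cutting protease, had 7.54, 7.28, 3.25 and 3.4 CPM in cardiomyocyte-like nuclei and 2.61, 3.49, 2.17 and 1.87 CPM in other named nuclei. Pericyte-like nuclei held no member high, against 1.39% of all genes tested, and 1 low, Adamts19, against 1.33%, a call that was lost without the cardiomyocyte-like cluster of highest UMI count. Adamts2 had 499.7, 412, 303 and 376 CPM in pericyte-like nuclei and 171, 139, 245 and 187 CPM in other named nuclei, with a ratio of 1.24 in library 3. Adamts12 had 588, 338, 335 and 390.0 CPM in pericyte-like nuclei and 435, 267, 169 and 246 CPM in other named nuclei.

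Neutrophil-like nuclei, with 50, 833 and 136 nuclei in libraries 2, 3 and 4 and only 2 in library 1, held the 2 neutrophil granule MMPs high, against 2.55% of all genes tested. Mmp8, the neutrophil collagenase, had 527, 103 and 378 CPM in neutrophil-like nuclei, from 36, 132 and 58 UMIs, against 10.6, 8.0 and 7.95 CPM in other named nuclei. Mmp9, the second gelatinase, had 87.9, 43.6 and 58.6 CPM in neutrophil-like nuclei, from 6, 56 and 9 UMIs, against 7.4, 7.4 and 4.36 CPM in other named nuclei. For both genes every neutrophil-like value lay above every value of other nuclei, with the lowest ratios at 12.8 (95% interval 10.4 to 15.8) in library 3 and 5.89 (95% interval 4.34 to 7.88) in library 3. Mmp8 and Mmp9 were not among the marker genes, and all members were left out of the variable genes used for clustering. Adamts12 was the 1 member low in neutrophil-like nuclei, at 102, 49 and 71.7 CPM against 279.7, 178 and 254 CPM in other named nuclei, where 1.81% of all genes were low.

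Macrophage-like nuclei, with 201, 4268 and 649 nuclei in libraries 1, 3 and 4, held 1 member high, against 3.86% of all genes tested, and 10 low, against 6.48%. The member high was Adamts13, the protease of von Willebrand factor, with 99.7, 20.0 and 12.7 CPM in macrophage-like nuclei and 4.14, 7.33 and 2.86 CPM in other named nuclei. The count behind it was 19, 156 and 14 UMIs, and the nuclei of library 1 came mostly from a cluster led by Cd163, F13a1 and Stab1 while another cluster held most macrophage-like nuclei of libraries 3 and 4. Mmp12, the macrophage elastase, had 0, 35.7 and 37.3 CPM in macrophage-like nuclei and 0, 15.6 and 7.66 CPM in other named nuclei. Library 1 had 0 UMIs of Mmp12 in all nuclei, and in libraries 3 and 4 the ratio was 2.28 and 4.87. The 10 members low were Adamts2, Adamts5, Adamts6, Adamts7, Adamts9, Adamts10, Adamts12, Adamts19, Mmp15 and Timp3, 8 of them ADAMTS genes. Adamts6 had 57.7, 53.8 and 47.3 CPM in macrophage-like nuclei and 199, 279 and 284 CPM in other named nuclei.

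In T or NK-like nuclei Adamts14 was the 1 member high, against 1.88% of all genes tested. It had 286, 89.3 and 101 CPM there in libraries 1, 3 and 4, from 40, 100 and 39 UMIs, and 28.4, 23.3 and 13.7 CPM in other named nuclei, so that the T or NK-like level was above the fibroblast-like level in each of these libraries. Other classes' markers stood in these nuclei at 44.2, 89 and 83.5% of their level over the library. After subtraction at that share and scaling of the rest, Adamts14 had 450.4, 375 and 349 CPM. Adamts12 was the 1 member low in T or NK-like nuclei, where 1.5% of all genes were low, and that count was 0 without the cardiomyocyte-like cluster of highest UMI count and 2 with median-of-ratios scaling. Dendritic-like nuclei held no member high, against 3.21% of all genes tested, and 7 low, Adamts2, Adamts6, Adamts7, Adamts9, Adamts12, Adamts19 and Timp3, against 4.97%. Schwann-like nuclei, counted in libraries 1 and 3, held Adamts17 high at 74.8 and 35.7 CPM and 30.4 and 11.2 CPM in other named nuclei, from 9 and 5 UMIs, against 2.27% of all genes tested. Mmp16 had 108 and 35.7 CPM in Schwann-like nuclei, from 13 and 5 UMIs, and 4.96 and 25.1 CPM in other named nuclei. Adamts2 and Adamts10 were low in Schwann-like nuclei, where 1.19% of all genes were low. Counts this small leave wide intervals, no member was counted as high there when members were allowed among the variable genes, and the ratio of Mmp16 in Schwann-like nuclei was 1.42 (95% interval 0.460 to 3.33) in library 3.

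The 4 TIMPs had different patterns over the classes. Timp1, the inducible secreted inhibitor, differed far more between libraries than between classes of 1 library. In fibroblast-like nuclei it had 16.1, 333, 914 and 842 CPM, and in other named nuclei 3.6, 109, 678 and 370.0 CPM. In cardiomyocyte-like nuclei Timp1 had 2.39, 89.2, 505 and 288 CPM, and in other named nuclei 9.89, 159, 805 and 544 CPM. Over the classes counted, Timp1 lay between 2.39 and 21 CPM in library 1 and between 288 and 996 CPM in libraries 3 and 4, so these libraries did not overlap. After subtraction of the library profile and scaling of the rest, Timp1 was at 0.748, 0, 0 and 0 CPM in cardiomyocyte-like nuclei. In fibroblast-like nuclei it was at 18.4, 394, 1045 and 1186 CPM, above the values before subtraction because of the scaling. Timp1 thus kept its spread between libraries in fibroblast-like nuclei and came to 0 in cardiomyocyte-like nuclei of libraries 2 to 4.

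Timp2, which also helps Mmp14 to activate the precursor of Mmp2, had 460.3, 354, 335 and 308 CPM in fibroblast-like nuclei and 70.4, 126, 301 and 146 CPM in other named nuclei. Macrophage-like nuclei had 236, 441 and 377 CPM of Timp2 in libraries 1, 3 and 4, and other named nuclei 141, 278 and 173 CPM. Between these classes Timp2 was higher in macrophage-like nuclei in libraries 3 and 4 and lower in macrophage-like nuclei in library 1. Timp3 was low in fibroblast-like nuclei, at 81.1, 50.5, 53.3 and 109.7 CPM and 169, 239.7, 132 and 313 CPM in other named nuclei, the 1 member low there, against 2.14% of all genes tested. That count was 0 when members were allowed among the variable genes, 4 with at least 1000 UMIs per nucleus, with Timp3 not among them, and 2 after free RNA subtraction. Timp3 had 330.5, 301, 173 and 331 CPM in pericyte-like nuclei, and 314, 336, 202 and 270.1 CPM in endothelial-like nuclei. In cardiomyocyte-like nuclei Timp3 had 80.7, 200.1, 189 and 484 CPM and in other named nuclei 236, 269, 89.8 and 196 CPM, lower in the class in libraries 1 and 2 and higher in libraries 3 and 4.

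**Figure D3:**
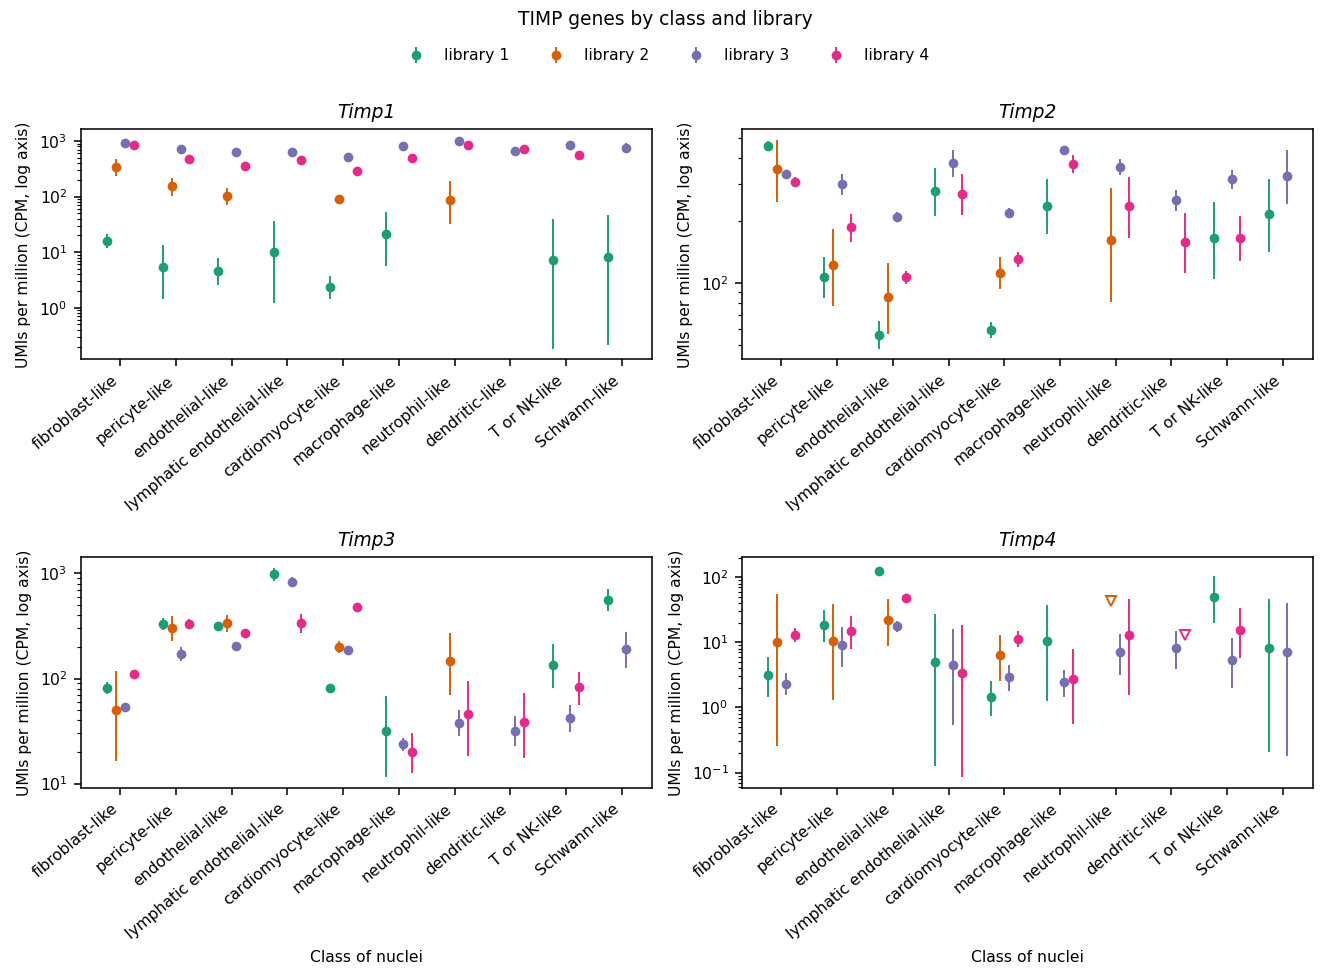
CPM on a log axis of the 4 TIMP genes in each class (horizontal axis) and library (colours), with exact Poisson 95% intervals, and open triangles at the floor of 3 UMIs where the count was 0. Timp1 separates by library, with library 1 at the bottom of each class in which it was counted, while Timp4 in endothelial-like nuclei stands at 17.6 to 127 CPM.

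A finer clustering, added after the values above had been seen and used as description only, split the endothelial-like and fibroblast-like classes. An endothelial-like cluster whose leading genes included Npr3 and Nrg1, with 135, 511 and 260 nuclei in libraries 1, 3 and 4, had 4 of 29 members high against other endothelial-like nuclei, where 2.49% of all genes were. Npr3 is known as a marker of endocardium, a cell type that had no marker list here. Mmp24, a membrane-type MMP best known from nervous tissue, had 60.5, 27.4 and 71.2 CPM in the Npr3-led cluster, from 14, 47 and 92 UMIs, and 0.364, 0.358 and 1.73 CPM in other endothelial-like nuclei. Adamts17 had 509.9, 109.8 and 58.8 CPM in the Npr3-led cluster and 31, 16.3 and 13.6 CPM in other endothelial-like nuclei. Adamts15 had 69.1, 32.7 and 37.1 CPM in the Npr3-led cluster and 6.92, 6.62 and 10.7 CPM in other endothelial-like nuclei. Every Npr3-led value of these 3 genes, and of Mmp28 given below, was above every value of other endothelial-like nuclei. The share of all genes that separate in this way was not counted. Outside the Npr3-led cluster the endothelial-like level of Adamts17 lay nearer to that of other named nuclei, given above as 21.9, 5.22 and 8.57 CPM for libraries 1, 3 and 4.

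Mmp28 had 56.2, 45.5 and 35.6 CPM in the Npr3-led cluster and 11.3, 8.41 and 8.8 CPM in other endothelial-like nuclei, against 3.16, 4.2 and 5.63 CPM in named nuclei of other classes. The high calls of Adamts17 and Mmp28 in the whole endothelial-like class thus include nuclei of this cluster, and the class without it was not counted. Timp4 ran the other way, at 0, 3.5 and 5.42 CPM in the Npr3-led cluster and 139, 19.5 and 50.7 CPM in other endothelial-like nuclei, and Mmp15 had 4.32, 4.67 and 10.1 CPM and 84.9, 41.7 and 46.9 CPM. These were the 2 members low, where 2.21% of all genes were. Adamts9 had 64.8, 171 and 629 CPM in the Npr3-led cluster and 515, 553 and 1166 CPM in other endothelial-like nuclei, lower in each library but with a ratio over 0.5 in library 4. In an endothelial-like cluster whose leading genes included Gja5 and Bmx, known from arteries, Mmp28 was the 1 member high, at 51.6, 56.8 and 43.3 CPM against 12.2, 15.6 and 10.4 CPM in other endothelial-like nuclei, where 1.27% of all genes were high. Adamts17 was the 1 member low there, at 10.3, 0 and 0 CPM against 72.2, 39.7 and 21.8 CPM, where 1.25% of all genes were low. Those other nuclei included the Npr3-led cluster, in which Adamts17 was high, and the comparison without that cluster was not made.

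Among fibroblast-like nuclei of libraries 3 and 4, a cluster led by Adam12 and Col8a1, with 2200 and 430 nuclei, was set against a cluster led by genes that include Scara5 and C7, with 628 and 357 nuclei. High in the Adam12-led cluster were 2 of 22 members, where 4.48% of all genes were. Adamts6 had 537 and 671 CPM in the Adam12-led cluster and 246 and 234 CPM in the Scara5-led cluster, and Mmp16 had 57.2 and 70.7 CPM and 16.3 and 31.9 CPM. Low in it were 5 members, where 2.79% of all genes were. Mmp2 had 136 and 118 CPM in the Adam12-led cluster and 292 and 344 CPM in the Scara5-led cluster, and Adamts5 had 156 and 109 CPM and 322 and 421 CPM. Timp2 had 292 and 255 CPM in the Adam12-led cluster and 588 and 562 CPM in the Scara5-led cluster, and Adamts19 had 78.7 and 73.9 CPM and 192 and 267 CPM. Mmp12 was the other member low, with an interval that included 1 in library 4. The procollagen N-proteinase Adamts2 had 635 and 687 CPM in the Adam12-led cluster and 430.4 and 621 CPM in the Scara5-led cluster. Among members high in fibroblast-like nuclei as a whole, Mmp16 was thus higher in the Adam12-led cluster and Mmp2 and Adamts5 were higher in the Scara5-led cluster. The others of that group, Adamts2, Adamts3, Adamts14 and Mmp23, were counted neither as high nor as low between these clusters.

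**Figure D4:**
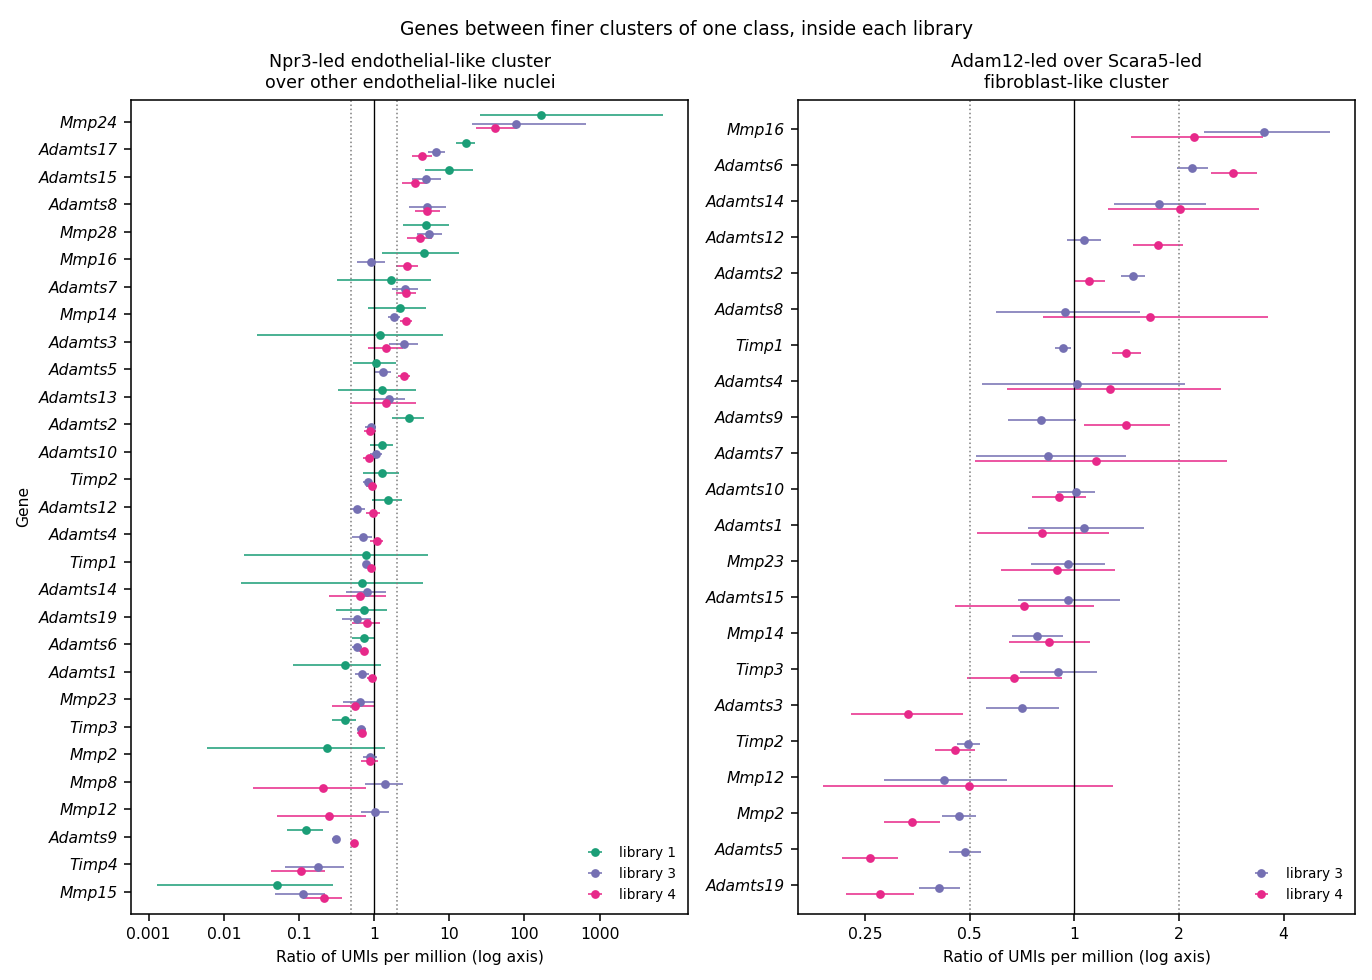
Ratio of CPM on a log axis (horizontal) for each gene with enough UMIs (vertical), with the Npr3-led cluster over other endothelial-like nuclei on the left and the Adam12-led over the Scara5-led fibroblast-like cluster on the right, colours for libraries, bars for 95% intervals and dotted lines at 0.5 and 2. Mmp24, Adamts17 and Adamts15 lie to the right of 2 in each library on the left, and Mmp2, Adamts5 and Adamts19 to the left of 0.5 in each library on the right.

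Over all nuclei, 27 of the 34 members with at least 100 UMIs differed by 2-fold or more between the highest and the lowest library, beside 61.5% of all genes. A library here is 1 suffix with its own depth and its own mix of nuclei, so these spans describe libraries and not time after infarction. Timp1 spanned most, at 6.01, 219, 769 and 507 CPM in libraries 1 to 4, which is 128-fold from library 1 to library 3. Mmp12 had 0, 228, 777 and 197 UMIs, or 0, 17.8, 20.1 and 9.66 CPM, and library 3 was at least 105-fold over a floor of 3 UMIs, 0.192 CPM, in library 1. Mmp9 had 0.319, 13.8, 8.76 and 5.2 CPM and Mmp8 had 1.15, 25.9, 11.4 and 11.6 CPM. For both, library 2 was highest and library 1 lowest. Neutrophil-like nuclei were 0.0239, 0.388, 5.83 and 2.20% of nuclei in libraries 1 to 4, with most nuclei of library 2 in no named class.

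Adamts4 had 3.64, 98.1, 16.4 and 51.4 CPM over all nuclei of libraries 1 to 4, and Adamts9 had 172, 479.7, 158 and 629 CPM. Both were highest in libraries 2 and 4, as was Adamts1 at 26.9, 76.8, 33.4 and 95.6 CPM. Mmp23 had 8.56, 82.3, 28.7 and 19.9 CPM, with library 2 above the other libraries. Mmp14 had 17.5, 49.3, 73.7 and 61.5 CPM and Mmp16 had 5.75, 23.6, 25.2 and 21.5 CPM, each lowest in library 1. Timp4 had 27.3, 9.45, 5.71 and 24.8 CPM and Adamts19 had 209, 54.2, 63.7 and 80.6 CPM, each highest in library 1. The narrowest spans were those of Adamts6, Adamts5, Adamts2 and Adamts3, at 1.34, 1.36, 1.45 and 1.5-fold. As a sum, the 4 TIMPs had 328, 533, 1193 and 979 CPM, the 21 MMPs 126, 329.7, 299 and 263 CPM and the 19 ADAMTS genes 1635, 1839.8, 1196 and 1843 CPM in libraries 1 to 4.

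**Figure D5:**
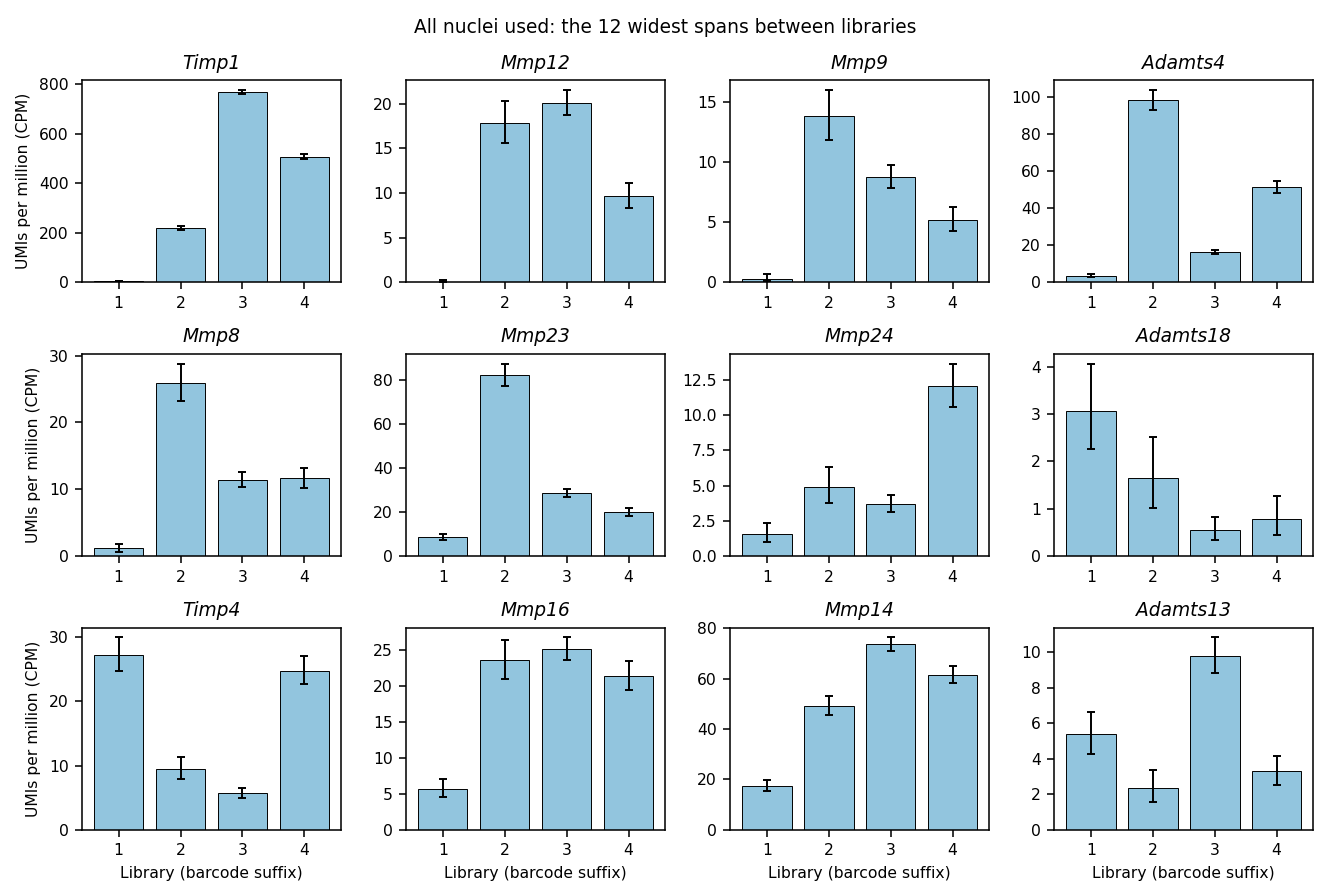
CPM over all nuclei used (bars, from 0, with exact Poisson 95% intervals) of the 12 genes with the widest spans, by library (horizontal axes, barcode suffix). Timp1, Mmp12, Mmp9, Adamts4 and Mmp8 are near 0 in library 1, whereas Timp4 and Adamts18 are highest there.

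Within classes, spans of 2-fold or more were counted over libraries with at least 200 nuclei of the class. They were met by 16 of 26 members in fibroblast-like nuclei (41.1% of all genes), 20 of 28 in endothelial-like nuclei (37.4%), 6 of 13 in pericyte-like nuclei (33.2%), 21 of 25 in cardiomyocyte-like nuclei (63.1%) and 9 of 19 in macrophage-like nuclei (35%). Timp1 had the widest span in each of these 5 classes, from 37.9-fold in macrophage-like to 211-fold in cardiomyocyte-like nuclei. These are spans before subtraction, and that of Timp1 in cardiomyocyte-like nuclei was not kept after the library profile was subtracted, as given above. The count in macrophage-like nuclei was 3 with at least 1000 UMIs per nucleus, and that in cardiomyocyte-like nuclei 8 after free RNA subtraction. In fibroblast-like nuclei of libraries 1, 3 and 4, Adamts17, Adamts19, Adamts14, Adamts15, Adamts10, Adamts12 and Adamts5 were highest in library 1, by 9.5, 5.97, 3.77, 2.92, 2.73, 2.39 and 2.19-fold over the lowest library. Mmp2, Mmp23 and Adamts2 differed by 1.14, 1.21 and 1.54-fold in the same nuclei.

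Most fibroblast-like nuclei of library 1 came from another cluster than those of libraries 3 and 4, as did cardiomyocyte-like, endothelial-like and macrophage-like nuclei. In endothelial-like nuclei, over libraries 1, 3 and 4 alone since library 2 had under 200 nuclei, Adamts4 spanned 25-fold, Adamts1 5.4-fold and Adamts9 2.57-fold, each highest in library 4 and lowest in library 1 of these 3. Timp4 spanned 7.21-fold with library 1 highest. Adamts12, Adamts15, Adamts5 and Mmp28 differed by at most 1.25-fold in endothelial-like nuclei. In cardiomyocyte-like nuclei Mmp2 had 3.47, 29.1, 64.5 and 44 CPM, Mmp14 0.837, 14.6, 45.6 and 28.7 CPM and Adamts2 15.3, 91.9, 171 and 123 CPM, each lowest in library 1. The summed fibroblast markers in the same nuclei were 164, 1017, 3850 and 1844 CPM over 10 genes, and after subtraction of the library profile Mmp2 and Mmp14 were at 0 in all 4 libraries. Mmp24 in cardiomyocyte-like nuclei had 0.957, 2.73, 9.59 and 22.8 CPM, and 0.652, 0.212, 21.4 and 36.9 CPM after subtraction, so its higher level in libraries 3 and 4 was still present.

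Timp3 in cardiomyocyte-like nuclei had 47, 247, 351 and 782 CPM after subtraction, and Adamts12 583, 437, 757 and 991 CPM, both highest in library 4. Before subtraction Adamts12 spanned 1.68-fold in this class and was nearly the same in libraries 1 and 4. The scaling after subtraction was larger in library 4 than in library 1, so the gap of Adamts12 between these libraries depends on it. The free-RNA share was also higher in libraries 3 and 4 than in library 1 in each of these classes, and beyond the subtracted values its part in the spans was not tested.

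The remaining 10 members had under 100 UMIs over all nuclei used. Adamts16 had 11, 27, 32 and 16 UMIs in libraries 1 to 4, Mmp20 2, 6, 5 and 7, Mmp21 1, 1, 7 and 5 and Mmp13 3, 3, 2 and 2. The stromelysins and matrilysin were close to 0, with 8 UMIs for Mmp3, 5 for Mmp10 and 9 for Mmp7. The interstitial collagenase Mmp1 had 5 UMIs, Mmp27 had 7 and Mmp1b had 0. Floors of 3 UMIs correspond to 0.192, 0.234, 0.0775 and 0.147 CPM in libraries 1 to 4, so for Mmp1b any level up to these could have gone unseen.

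Other genes of the system were taken from lists and counted by the same rule, and the lists hold no members. Over all genes tested the shares high and low were 2.53 and 2.14% in fibroblast-like, 2.92 and 3.1% in endothelial-like, 3.86 and 6.48% in macrophage-like, 4.44 and 2.24% in cardiomyocyte-like, and 2.55 and 1.81% in neutrophil-like nuclei. In fibroblast-like nuclei 6 of 18 matrix substrates tested were high, Fbn1, Postn, Tnc, Bgn, Thbs2 and Fbln1, with 1 low, and the median log2 ratio of the list was 1.12. Fbn1, the fibrillin of microfibrils, had 1564, 2061, 2274 and 1775 CPM in fibroblast-like nuclei and 97.8, 345, 587 and 384 CPM in other named nuclei. Of 20 other extracellular proteases 2 were high, Adam12 and Htra3, and 1 was low, Tll1. Reck, a membrane-anchored inhibitor of MMPs, had 130.0, 101, 82.3 and 80.0 CPM in fibroblast-like nuclei and 15.1, 30.1, 29.2 and 32.9 CPM in other named nuclei, and was 1 of 2 high among 12 inhibitors and receptors. Adamtsl3, an ADAMTS-like protein without protease activity, had 532, 242, 169 and 182 CPM in fibroblast-like nuclei and 38.9, 46.8, 42.7 and 36.9 CPM in other named nuclei, the 1 high of 5 ADAMTS-like genes.

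In endothelial-like nuclei 2 of the 20 other proteases were high, Tll1 and Plat. Tll1, a procollagen C-proteinase, had 219, 441, 266 and 347 CPM in endothelial-like nuclei and 33.7, 34.7, 27.8 and 86.7 CPM in other named nuclei. Plat, the tissue plasminogen activator, had 98.7, 79.2, 67.3 and 129.7 CPM in endothelial-like nuclei and 10.3, 38.9, 32.5 and 46.8 CPM in other named nuclei. Of the 22 matrix substrates tested 1 was high, Eln, and 3 were low. Bmp1, the main procollagen C-proteinase and named after its values were seen, was neither high nor low in endothelial-like nuclei, at 86.4, 178, 88.8 and 117 CPM against 119.7, 177, 121 and 155 CPM in other named nuclei. In fibroblast-like nuclei Bmp1 had 303, 202, 198 and 226 CPM and in other named nuclei 70.8, 176, 78.5 and 115 CPM, which was also short of 2-fold in libraries 2 and 4.

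In macrophage-like nuclei 3 of the 20 other proteases were high, Ctss, Ctsb and Plau, and 3 were low. Ctss, a lysosomal elastin-cutting cathepsin, had 588, 188 and 349.6 CPM in macrophage-like nuclei and 9.26, 60.2 and 35.6 CPM in other named nuclei. Plau, the urokinase plasminogen activator, had 26.2, 40.0 and 48.2 CPM in macrophage-like nuclei and 0.388, 8.0 and 6.04 CPM in other named nuclei. Of 23 matrix substrates 2 were high, Fn1 and Spp1, and 5 were low. In cardiomyocyte-like nuclei none of the 20 other proteases was high or low, and Adamtsl5 was the 1 high of 5 ADAMTS-like genes, at 21.5, 33.7, 41.3 and 42.1 CPM against 6.18, 5.81, 10.8 and 6.69 CPM in other named nuclei. In neutrophil-like nuclei Adam17, the sheddase of tumour necrosis factor, had 190.4, 277 and 241 CPM in libraries 2 to 4 and other named nuclei 77.2, 133 and 103 CPM, the 1 high of the 20.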

How the data were processed

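Nuclei were isolated with a lysis buffer and a Dounce homogeniser and sequenced after 10x 3′ v3 library preparation, per the labels' protocols. The authors deposited unnormalised UMI counts for each gene in each nucleus as 1 matrix. Its file header names cellranger 5.0.1. The submitters' processing notes name Cell Ranger 6.1.1, Seurat and rn7, and which build the gene models came from was not resolved. No genome was used.

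Nuclei were kept from 500 UMIs and 300 genes upward if mitochondrial UMIs were at most 10%, and the highest scrublet scores, 0.8% per 1000 nuclei, were removed as doublets. Counts were scaled to 10000 UMIs per nucleus, log-transformed and clustered with scanpy 1.11.5 without the members (2000 variable genes, 30 principal components, 15 neighbours, Leiden resolution 1, giving 21 clusters, 3 of them unnamed, and resolution 2 for the finer clusters, giving 34). Clusters were named when at least 3 of the fixed markers exceeded their level in the clusters of other classes 2-fold and were seen in 5% of nuclei, with the mean log2 value 0.5 above that of the next class. Of 124 marker symbols 7 were not used. The naming rule, the scaling, the resolution and the minimum of 200 nuclei for spans were settled after clusters had been seen, and the members and lists were chosen with earlier results of these data known.

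CPM, ratios and intervals (scipy 1.17.1) were computed from UMI sums per class and library, with no test, since each sample has 1 library. Free RNA was estimated as the level of unrelated classes' markers in a class over their level in the library. All members with at least 100 UMIs are named, and the others by counts. Related genes are named by at most the 3 highest and 3 lowest ratios of a list. Exceptions are Bmp1 and the matrix substrates in fibroblast-like nuclei, of which all that were high are named. The calling steps were tested on simulated data. A planned comparison of protein sequences was not made. Alternatives are in the closing section.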

Additional observations from a re-analysis of the deposited data

How the results depend on the processing

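Counts of members were recomputed with at least 1000 UMIs per nucleus, without doublet removal, with members allowed among the variable genes, with median-of-ratios scaling, without a count minimum, after free RNA subtraction, without the cardiomyocyte-like cluster of highest UMI count and, chosen after seeing the data, without the finer cluster of that kind. The share of all genes called under each alternative is not given, here or above. Counts under an alternative can thus follow a shift of all genes and are not read as particular to the members. Members high in fibroblast-like nuclei numbered 7 and 6 to 9 under these alternatives, and those high in endothelial-like nuclei 4 and 3 to 5. No ratio of a called member changed direction. Members high in cardiomyocyte-like nuclei numbered 2 with median-of-ratios scaling, 1 after free RNA subtraction and 1 when the cluster of highest UMI count was left out, against 0. Members spanning libraries in macrophage-like nuclei numbered 3 at 1000 UMIs, against 9, and in cardiomyocyte-like nuclei 6 without the cluster of highest UMI count, against 21. With no count minimum, spans numbered 27, 20, 32, 36 and 28 in fibroblast-, pericyte-, endothelial-, cardiomyocyte- and macrophage-like nuclei, and after free RNA subtraction, which leaves fewer members to test, 10, 3, 12, 8 and 5, against 16, 6, 20, 21 and 9. Spans over all nuclei numbered 27 to 34, also with every barcode included. For neutrophil-like nuclei 1000 UMIs left too few nuclei. Of the mean log2 ratios of named members, 204 moved by at most 1 SD over libraries and 19 by more, mostly after free RNA subtraction. Counts of members low moved more often: in cardiomyocyte-like nuclei 15 after subtraction, 12 without the cluster of highest UMI count, 8 without the finer one, 1 without doublet removal and 0 with median-of-ratios scaling, against 3. The finer clusters were compared at 1 setting. No paired analysis was possible because each sample has 1 library and no suffix is tied to a sample. Depth limits library 2 most, at a median of 602 UMIs per nucleus.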

Other observations

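Nuclei outside the named classes also held members. At the finer resolution 721 nuclei of library 2 met the fibroblast rule, whereas the main clustering named 60, and these 721 nuclei had 685 CPM of Adamts2, 135 CPM of Adamts5, 116 CPM of Mmp2 and 88.1 CPM of Adamts14, beside 738, 263, 101 and 70.7 CPM in the 60. An unnamed finer cluster of 881 library 2 nuclei, in which 2 endothelial markers passed the naming rule, had 807 CPM of Adamts9 and 152 CPM of Adamts4, beside 767 and 174 CPM in the 139 endothelial-like nuclei of library 2, of which 90 came from the cluster led by Nrg1 and Npr3.

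A finer cluster of 64 nuclei with epicardial markers, mostly of libraries 3 and 4, had 1866 CPM of Timp1, 244 CPM of Mmp16 and 194 CPM of Mmp14. A finer pericyte-like cluster mostly of library 1 had 794 CPM of Adamts12, and a finer smooth muscle-like cluster had 407 CPM of Timp3 and 175 CPM of Adamts12. These are values over pooled libraries, with no comparison made. In the main clustering, an unnamed cluster led by heat shock and haemoglobin genes held 790 nuclei of library 3 and 692 of library 4, in which the 4 TIMPs summed to 1831 and 1566 CPM, beside 1193 and 979 CPM over all nuclei of those libraries. The 19 ADAMTS genes summed to 751 and 1026 CPM in that cluster, beside 1196 and 1843 CPM over all nuclei.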
